A study of Mus musculus with 2 samples.

Results

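The genes described here encode the secreted and membrane-bound metalloproteases that cut the extracellular matrix, and their inhibitors: the matrix metalloproteases (MMPs), the ADAMTS proteases, the ADAMTS-like (ADAMTSL) proteins and the tissue inhibitors of metalloproteases (TIMPs). The choice was made with earlier results of these data known. It went by name and took all array probes for genes named *Mmp*, *Adamts*, *Adamtsl* or *Timp1* to *Timp4* followed by the numbering of these families. This gave 74 of the 39429 probes and 51 of the 29924 gene names on the array. Of the 51 genes, 23 encode MMPs, 19 ADAMTS proteases, 5 ADAMTSL proteins and 4 TIMPs.

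To ask which genes change early when WNT signaling is blocked in the ureter, wildtype NMRI mouse embryos were dissected at E11.5 and their ureters were cultured for 18 h. The medium held either 10 µM IWP-2, an inhibitor of the enzyme PORCN that WNT proteins need for their secretion, or the solvent DMSO (2:1000) as control. Sex was not determined, the medium held no serum, and the RNA of each channel came from a pool of several ureters whose kidney and bladder ends had been clipped off. A treated and a control pool were hybridised together on each of 2 two-colour Agilent arrays, with the dyes swapped between replicate 1 and replicate 2.

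MMPs and ADAMTS proteases hold a zinc ion in their active site and are made as inactive precursors that lose a propeptide, in many cases by cleavage with furin-like convertases. MMPs cut collagens, laminins and many other proteins, and ADAMTS proteases cut proteoglycans such as versican, trim procollagens or act on microfibrils. TIMPs bind the active site and block it. In developing organs they are known for remodelling the matrix between epithelial tubes and the mesenchyme around them.

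A gene was tested when a probe of it was well above background, by the scanner software, in over 0.5 of its 4 spots either in the IWP-2 channel of both arrays or in the control channel of both. Of the 51 genes, 37 passed: 13 MMPs, 17 ADAMTS proteases, 4 ADAMTSL proteins and 3 TIMPs. The other 14 were *Mmp1a*, *Mmp1b*, *Mmp3*, *Mmp7*, *Mmp8*, *Mmp10*, *Mmp20*, *Mmp21*, *Mmp27*, *Mmp28*, *Adamts13*, *Adamts20*, *Adamtsl3* and *Timp4*. None of their probes was well above background in any of the 4 channels, and their processed intensities in the control channels lay between 1.07 and 6.50, so that only an upper bound is known for them. Among the 37 tested genes, 36 were well above background in all 4 channels, and the exception was *Mmp13*.

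In a fit across all 20119 genes tested (limma, false discovery rate, FDR, of 0.05), 3 of 37 members (8.11%) passed, against 1.76% of all genes. *Adamts15* and *Adamts9* fell (lower calls were 1.15% of all genes) and *Mmp9* rose (higher calls were 0.611%). At an unadjusted p of 0.05, 14 members (37.8%) passed, against 13.4% of all genes. Of these 14, 9 were lower in IWP-2 (24.3% of the members, background 4.74%) and 5 were higher (13.5%, background 8.67%), among them *Mmp13*, which was measured above background in only 1 of its 2 control channels. With all 4 channels required, 4 were higher. Both IWP-2 intensities lay below both control intensities for 12 members (32.4%, against 18.0% of all genes tested) and above both for 10 (27.0%, against 17.4%). The sign of the change was alike on both arrays for 27 members (73.0%), against 56.0% of all genes tested. Between the arrays the log2 ratios of the 37 members had a Pearson correlation of 0.79 and those of all genes tested one of 0.47, which describes genes measured in the same 4 pools and not independent samples.

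No direction was common to the whole group. The median log2 ratio of IWP-2 over control was -0.00 over the 37 members and 0.00 over all genes tested. By family it was 0.03 for the MMPs, -0.09 for the ADAMTS proteases, -0.01 for the ADAMTSL proteins and -0.06 for the TIMPs. The median SD between the 2 arrays was 0.09 for the members and 0.11 for all genes.

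**Figure D1:**
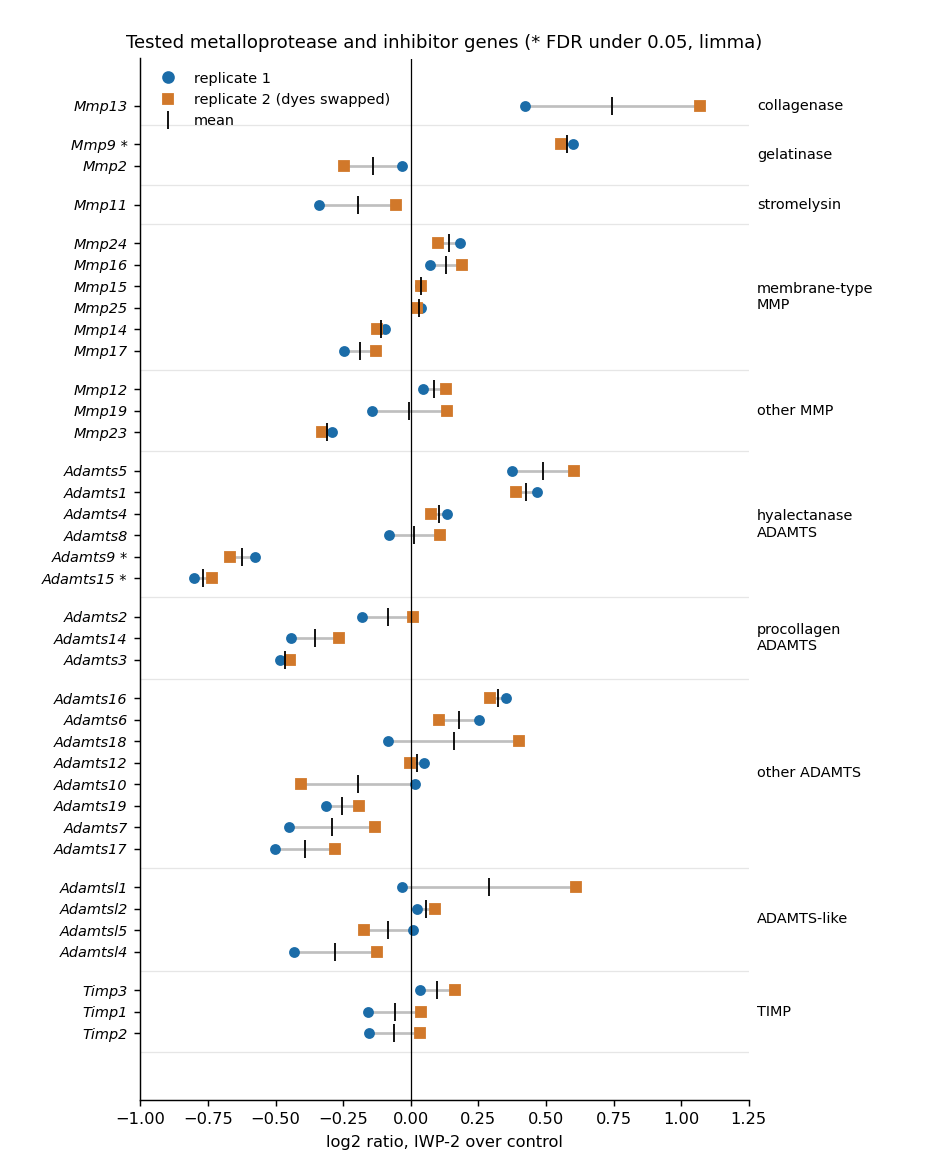
Log2 ratio of IWP-2 over control (x axis) of the 37 tested members (y axis), grouped by subfamily; circles are replicate 1, squares replicate 2 with swapped dyes, and ticks the mean. *Adamts15* and *Adamts9* lie lowest and *Mmp9* highest among the members above background in all 4 channels, *Mmp13* has a control channel at background on replicate 1, and the 3 *Timp* genes stay within 0.20 of 0.

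The hyalectanases are ADAMTS proteases that cut aggrecan, versican and related proteoglycans, and this subfamily held both ADAMTS genes that passed the FDR. Of its 7 genes 6 were tested. *Adamts15* and *Adamts9* fell, and *Adamts4* and *Adamts8* lay near 0. *Adamts1* and *Adamts5* were brighter in IWP-2 with an unadjusted p under 0.05 (8.67% of all genes tested) but did not pass the FDR.

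*Adamts15* encodes a versican-cutting protease that is also known from developing muscle and mesenchyme. Its control pools gave processed intensities of 386 on replicate 1 and 519 on replicate 2, and its IWP-2 pools gave 216 and 303. Both IWP-2 values lay below both control values, as for 18% of all genes tested. The log2 ratio was -0.80 on replicate 1 and -0.74 on replicate 2, a mean of -0.77 ± 0.05 (SD, n = 2), or 1.70-fold lower (limma, FDR = 0.0208). It was measured by a single probe at chr9:30707033-30707092 (mm9, minus strand). The first 30 of its 60 bases are shown with those of the other members past the FDR, since each of these results rests on what its probe binds.
*Adamts15*: gagtatcttcattgggttatggaccagtaa
*Adamts9*: tcagcatactcagagaacgacaggagatcg
*Mmp9*: ccaaccttttccagctactttagtcaatca

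*Adamts9* encodes a protease of versican and of other matrix proteins that is conserved from worm to mammals. Its intensities were 1915 and 2277 in the control pools and 1279 and 1422 in the IWP-2 pools. The IWP-2 values thus lay below both control values, as for 18% of all genes tested. The log2 ratios of -0.58 and -0.67 gave a mean of -0.62 ± 0.07 (SD, n = 2), or 1.54-fold lower (limma, FDR = 0.0394). The probe lies at chr6:92723051-92723110 (mm9, minus strand). A second probe for the gene, at chr6:92743256-92743315, was dimmer, and its log2 ratios of -0.40 and -0.47 had the same sign and a smaller size.

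*Adamts1*, an early-response protease of versican, went the other way. Its intensities were 2039 and 2236 in the control pools and 2843 and 2910 in the IWP-2 pools. The IWP-2 values thus lay above both control values, as for 17.4% of all genes tested. The log2 ratios were 0.47 and 0.39 (mean 0.43 ± 0.05, SD, n = 2), and the difference did not pass the threshold (limma, FDR = 0.107). *Adamts5*, the aggrecanase whose gene is the direct neighbour of *Adamts1* on chromosome 16, gave 48.9 and 36.4 in the control pools and 69.9 and 61.9 in the IWP-2 pools. Its log2 ratios were 0.38 and 0.60 (mean 0.49 ± 0.16, SD, n = 2; limma, FDR = 0.0922). Its second probe had log2 ratios of 0.47 and -0.04, so that the probes of this gene disagreed on replicate 2.

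The remaining hyalectanases moved little. *Adamts4*, another aggrecanase, had intensities of 158 and 150 in the control and 173 and 158 in the IWP-2 pools and a mean log2 ratio of 0.10 (limma, FDR = 0.830). *Adamts8*, which lies next to *Adamts15* on chromosome 9, gave 20.3 and 12.6 in the control and 17.9 and 14.9 in the IWP-2 pools. Its log2 ratios of -0.08 and 0.11 opposed each other, and its kept probes had opposite mean signs (0.01 and -0.06). Of the 2 pairs of neighbouring *Adamts* genes, the pair on chromosome 16 was thus higher at both genes without passing the FDR, whereas on chromosome 9 only *Adamts15* passed. No test compared the genes of a pair with each other.

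**Figure D2:**
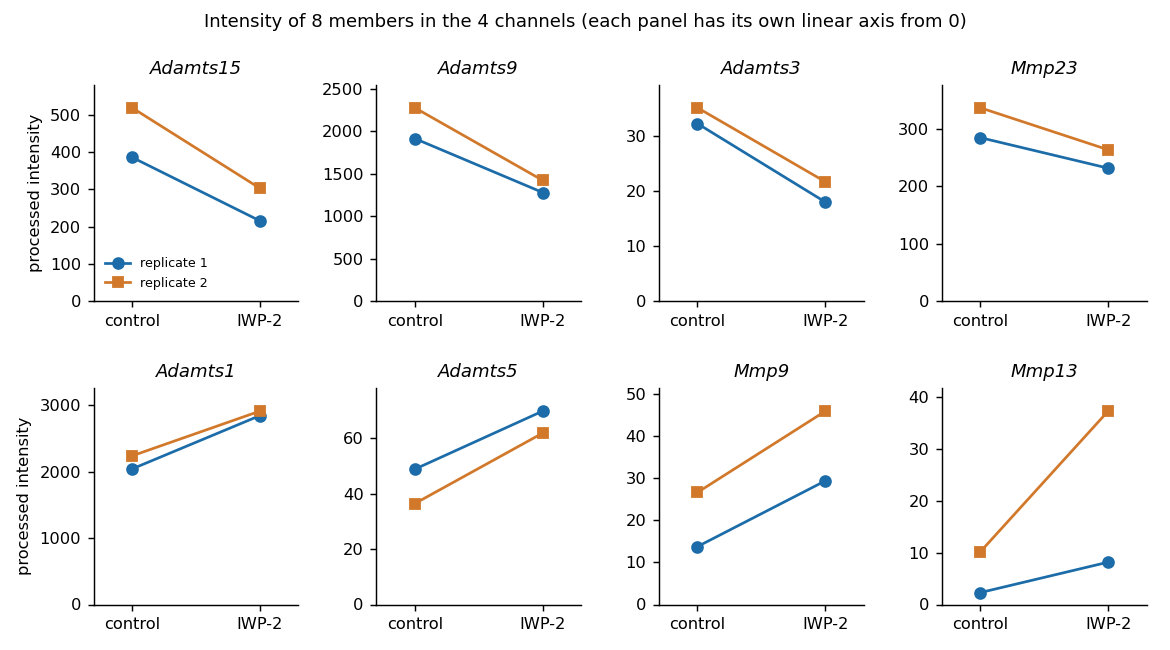
Processed intensity (y axis, linear from 0, a separate scale in each panel) of 8 members in the control and IWP-2 channels (x axis) of replicate 1 (circles) and replicate 2 (squares); lines join the channels of an array. In the upper row both arrays fall from control to IWP-2 and in the lower row both rise, and for *Mmp13* the arrays differ most in level.

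The procollagen N-proteinases ADAMTS2, ADAMTS3 and ADAMTS14 remove the amino-terminal propeptide of fibrillar collagens, and ADAMTS3 also takes part in the activation of the lymphatic growth factor VEGFC. All 3 genes were tested and none passed the FDR, though *Adamts3* and *Adamts14* were lower at an unadjusted p of 0.05 (4.74% of all genes tested). *Adamts3* gave 32.2 and 35.1 in the control and 18.0 and 21.7 in the IWP-2 pools, without overlap (18% of all genes tested). Its log2 ratios were -0.48 and -0.45 (mean -0.46 ± 0.03, SD, n = 2; limma, FDR = 0.0826). The second *Adamts3* probe had -0.04 and -0.30. *Adamts14* gave 31.7 and 24.8 in the control and 18.9 and 18.4 in the IWP-2 pools, with log2 ratios of -0.44 and -0.27 (limma, FDR = 0.191). *Adamts2* had a mean log2 ratio of -0.09 with opposite signs on the arrays.

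Of the 9 other ADAMTS genes 8 were tested, and none passed the FDR. *Adamts17*, whose protein acts on fibrillin microfibrils, had intensities of 347 and 291 in the control and 243 and 235 in the IWP-2 pools and log2 ratios of -0.50 and -0.28 (limma, FDR = 0.165). Its second probe moved less, with -0.06 and -0.11. *Adamts7*, a protease of cartilage oligomeric matrix protein, had log2 ratios of -0.45 and -0.13 (control 946 and 856, IWP-2 710 and 766; limma, FDR = 0.347). *Adamts19* had -0.31 and -0.19 (control 342 and 354, IWP-2 275 and 304; limma, FDR = 0.345). These 3 were lower at an unadjusted p of 0.05 (4.74% of all genes tested). In each of them both IWP-2 values lay below both control values, as for 18% of all genes tested.

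*Adamts16* was the single gene of this group that was higher at an unadjusted p of 0.05 (8.67% of all genes tested). It gave 55.4 and 71.1 in the control and 74.6 and 89.9 in the IWP-2 pools, and log2 ratios of 0.35 and 0.29 (limma, FDR = 0.211). Its second probe showed 0.40 on replicate 1 and -0.01 on replicate 2. *Adamts6*, *Adamts10*, *Adamts12* and *Adamts18* had mean log2 ratios between -0.20 and 0.18. *Adamts10* and *Adamts18* were examples of genes decided by a single array, with 0.02 and -0.41 for the first and -0.08 and 0.40 for the second. *Adamts12* had kept probes of opposite mean sign (0.02 and -0.02).

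The ADAMTSL proteins resemble ADAMTS proteases without the catalytic part, and several bind fibrillin. *Adamtsl4* was lower, with 50.1 and 41.8 in the control and 34.2 and 36.5 in the IWP-2 pools and log2 ratios of -0.43 and -0.13 (limma, FDR = 0.365). *Adamtsl1* had, by the probe used, the widest gap between the arrays of all ADAMTS and ADAMTSL genes tested, with -0.03 on replicate 1 and 0.61 on replicate 2. Its second kept probe was higher on both arrays, with 0.24 and 0.47. *Adamtsl2* and *Adamtsl5* had means of 0.06 and -0.08.

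**Figure D3:**
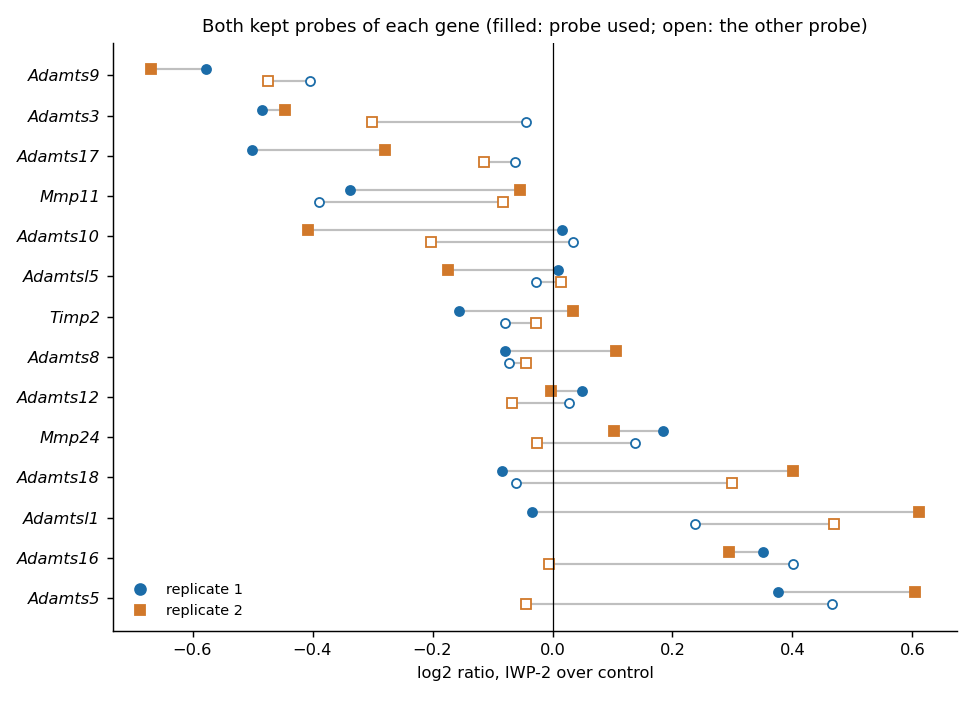
Log2 ratio of IWP-2 over control (x axis) for both kept probes of the 14 members that had 2 (y axis); filled symbols are the brighter probe, which was used, open symbols the other probe, circles replicate 1 and squares replicate 2. Both *Adamts9* probes lie below 0 on both arrays, and the mean sign of the probes was opposite for 2 of the 14 genes, *Adamts8* and *Adamts12*.

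Among the MMPs, 12 of the 13 tested genes had the same sign on both arrays (56% of all genes tested), and the exception was *Mmp19*. The 12 include *Mmp13*, which was not above background in a control channel. *Mmp9* rose, *Mmp13* was higher without passing the FDR, *Mmp23* was lower without passing it, and the remaining 10 had mean log2 ratios between -0.20 and 0.14.

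The gelatinases MMP2 and MMP9 cut denatured collagen and basement membrane collagen. *Mmp9*, which is known from neutrophils, macrophages and bone-resorbing cells, gave 13.7 and 26.6 in the control and 29.3 and 45.9 in the IWP-2 pools. Within each array the IWP-2 value was the higher, and the IWP-2 pool of replicate 1 lay close to the control pool of replicate 2. The log2 ratios were 0.60 and 0.56, a mean of 0.58 ± 0.03 (SD, n = 2), or 1.49-fold higher (limma, FDR = 0.0462). The ratio is on a scale on which an offset of 50 was added to the signal, which makes changes of dim probes smaller. The probe lies at chr2:164780620-164780679 (mm9, plus strand). *Mmp2* gave 6731 and 5626 in the control and 6659.6 and 4640.0 in the IWP-2 pools, with log2 ratios of -0.03 and -0.25 (limma, FDR = 0.748).

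Of the collagenases, which cut intact fibrillar collagen, only *Mmp13* could be tested. Its control intensity was 2.29 on replicate 1, where it was not well above background, and 10.1 on replicate 2. Its IWP-2 intensities were 8.18 and 37.4, both well above background, and *Mmp13* was tested because of these channels alone. The IWP-2 value of replicate 1 lay below the control value of replicate 2. The control level was thus measured on 1 of the 2 arrays and is only bounded on the other. The log2 ratios were 0.42 on replicate 1, where the control signal does not stand above background, and 1.07 on replicate 2. The mean of *Mmp13* was 0.75 and did not pass the FDR (limma, FDR = 0.0866). It is given as a description, since admission through the IWP-2 channels alone favours a higher ratio. Over the alternatives its mean ranged from 0.42 with replicate 1 alone to 1.86 as ratios of the processed intensities with no offset.

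The membrane-type MMPs are held at the cell surface, and MMP14 among them activates the MMP2 precursor. All 6 genes were tested, and all had the same sign on both arrays (56% of all genes tested) at small sizes. *Mmp14* gave 3793 and 3997 in the control and 3739 and 3564 in the IWP-2 pools, with a mean log2 ratio of -0.11 ± 0.02 (SD, n = 2; limma, FDR = 0.808). *Mmp17* had a mean of -0.19, *Mmp25* 0.03, *Mmp15* 0.04, *Mmp16* 0.13 and *Mmp24* 0.14, and none had an unadjusted p under 0.05.

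*Mmp11* encodes a stromelysin that is activated inside the cell by furin and is known from mesenchyme next to epithelium. It gave 7703 and 7343 in the control and 6252 and 6780.3 in the IWP-2 pools. Its log2 ratios were -0.34 and -0.05, and a second probe gave -0.39 and -0.08, so that the difference between the arrays was shared by both probes (limma, FDR = 0.586 for the brighter probe). *Mmp23*, an unusual MMP anchored in the membrane by its amino terminus, gave 284 and 336 in the control and 231 and 263 in the IWP-2 pools, without overlap (18% of all genes tested). Its log2 ratios were -0.29 and -0.33 (mean -0.31 ± 0.02, SD, n = 2; limma, FDR = 0.228). *Mmp12*, the macrophage elastase and a neighbour of *Mmp13* in a run of 10 *Mmp* genes on chromosome 9, had log2 ratios of 0.05 and 0.13. *Mmp13* and *Mmp12* were the only tested genes of that run, since the other 8 were not above background.

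The inhibitors differed by little between IWP-2 and control. *Timp1* gave 1011 and 1068 in the control and 893 and 1096 in the IWP-2 pools (log2 ratios -0.16 and 0.04; limma, FDR = 0.939). *Timp2*, whose protein also helps MMP14 to activate MMP2, gave 6917 and 6441 in the control and 6605 and 6229 in the IWP-2 pools (-0.16 and 0.03; FDR = 0.938). *Timp3*, which binds to the matrix and also blocks several ADAMTS proteases, gave 2446 and 2347 in the control and 2561 and 2578 in the IWP-2 pools (0.03 and 0.16; FDR = 0.853). *Timp1* and *Timp2* had opposite signs on the arrays, and *Timp3* was slightly higher on both. The second kept probe of *Timp2* had -0.08 and -0.03.

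A filter of the kind used in the study asked for a brighter channel of 100 or more and a change of at least 2-fold in the same direction on both arrays. Of the 17 members that were bright enough, 0 passed, against 0.419% of the bright genes of the array. At 1.5-fold, 1 of the 17 passed, *Adamts15* (5.88%, background 1.64%). *Mmp9* and *Mmp13* were below the intensity limit.

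**Figure D4:**
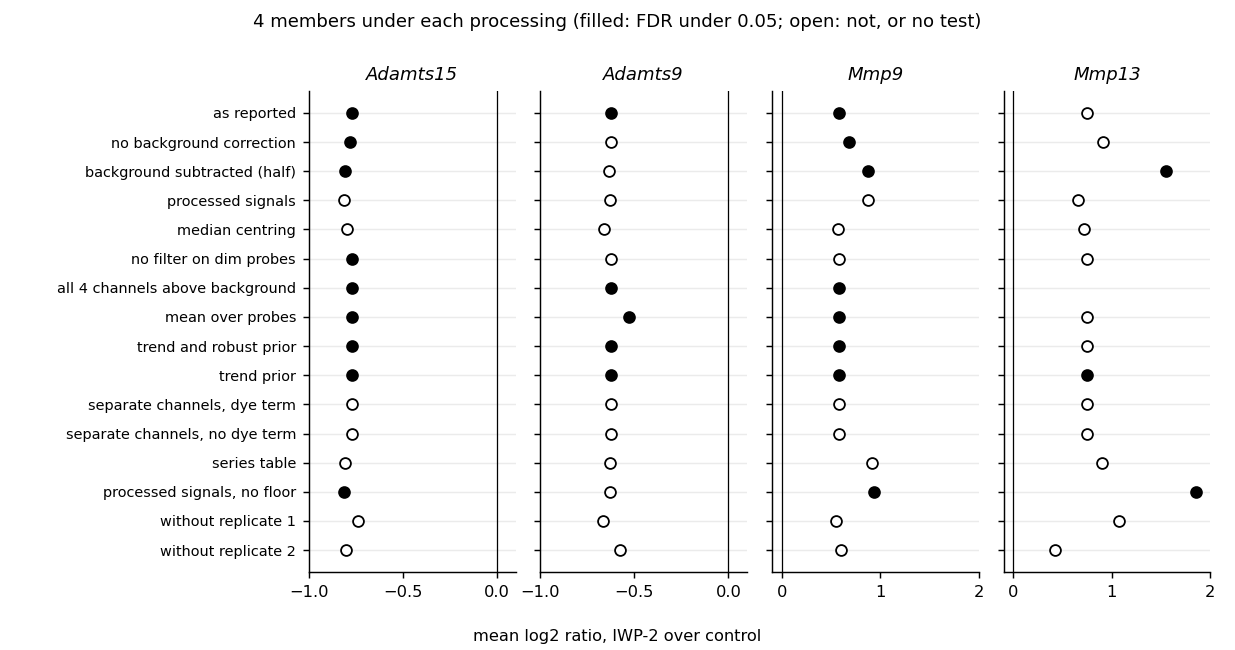
Mean log2 ratio of IWP-2 over control (x axis) of 4 members under each processing (y axis, as reported and then with each alternative, of which the processed signals and the deposited fold changes of the series table replace background correction and normalization together); filled circles passed FDR 0.05, open circles did not or had no test. *Adamts15* stays between -0.81 and -0.74 and *Adamts9* between -0.67 and -0.53, whereas *Mmp9* ranges from 0.56 to 0.94 and *Mmp13*, with a control channel at background, from 0.42 to 1.86.

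The calls rested on 2 arrays and 1 residual degree of freedom per gene, to which the fit added 5.52 from the variance of all genes tested. With each array centred on its median in place of the loess curve, none of the 3 genes passed (FDR = 0.265 for *Adamts15*, 0.517 for *Adamts9* and 0.616 for *Mmp9*), while their mean log2 ratios were -0.80, -0.66 and 0.57. Over the alternatives with a test, the FDR ranged from 0.0115 to 0.396 for *Adamts15*, from 0.0119 to 0.517 for *Adamts9* and from 0.0260 to 0.616 for *Mmp9*.

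Genes that act on or with these proteases were described as lists, which were chosen with earlier results of these data known. Of all genes tested, 1.15% were lower and 0.611% higher past the FDR. At an unadjusted p of 0.05 these shares were 4.74% and 8.67%. Of 27 activators, regulators and binding partners 24 were tested, and *Pcsk5* alone passed the FDR. *Pcsk5*, a furin-like convertase that cleaves precursor proteins, fell from 723 and 628 in the control to 349 and 322 in the IWP-2 pools, a mean log2 ratio of -0.96 (limma, FDR = 0.0108). At an unadjusted p of 0.05, 2 of the 24 were lower and 4 higher, and the list had a median log2 ratio of 0.05. *Pcolce2*, an enhancer of procollagen C-proteinases, had the next lowest mean at -0.55 (FDR = 0.0628), and *Hapln1*, a link protein of hyaluronan and versican, the highest at 0.55 (FDR = 0.0747).

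The related ADAM proteases are membrane-bound enzymes that shed the outer parts of receptors and ligands. Among 10 tested, 0 passed the FDR in limma and 3 were higher at an unadjusted p of 0.05 (8.67% of all genes tested). Their median log2 ratio was 0.15, and *Adam8* had the highest mean (0.45; limma, FDR = 0.184), with 0.23 and 0.67 on the arrays. Of 14 matrix substrates of ADAMTS proteases 12 were tested, with a median of -0.11. Past the FDR, 2 fell and 0 rose, against 1.15% and 0.611% of all genes tested. The small proteoglycan gene *Dcn* fell from 1190 and 1258 to 602 and 634 (mean log2 ratio -0.98; limma, FDR = 0.0107), and *Nid2*, which encodes a basement membrane nidogen, fell from 2016 and 1983 to 1204 and 1370 (-0.74 and -0.52; FDR = 0.0463). *Vcan*, the gene of the hyalectanase substrate versican, had -0.12 and 0.04.

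Markers of cell types moved with the treatment as well. Of all 20119 genes tested, 5727 were higher and 5541 lower on both arrays. At an unadjusted p of 0.05, 8.67% were higher and 4.74% lower. In bulk tissue such as this, a change in the number of cells of a type and a change in RNA per cell cannot be told apart. All 12 macrophage markers were detected and higher in IWP-2 on both arrays, with median log2 ratios of 0.32 and 0.57. All 12 were also higher at an unadjusted p of 0.05. Their summed intensity was 19623 and 15141 in the control and 24880 and 22091 in the IWP-2 pools, and *Adgre1* alone passed the FDR. *Mmp9*, *Mmp12*, *Mmp13* and *Adam8* are all known from cells of the macrophage lineage among others, and the part of macrophages in their ratios was not tested. The 10 endothelial markers were likewise all higher on both arrays (median 0.46), *Kdr* and *Cldn5* past the FDR and 9 at an unadjusted p of 0.05. The medians of the nerve and red cell markers were 0.36 and 0.42, with 6 of 8 genes in each list higher on both arrays and 0 past the FDR in limma (6 and 5 were higher at an unadjusted p of 0.05). The part of these cells in the values of *Adamts1* and *Adamts5* was not tested.

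The ureteric mesenchyme itself was represented by 10 markers, all of them detected, with a median of -0.07. Of these, *Tbx18* (mean -1.03), *Tcf21* (-0.77) and *Sox9* (-1.30) passed the FDR as lower (1.15% of all genes tested). *Pdgfrb* (0.50), *Twist1* (0.45) and *Vim* (0.31) were higher at an unadjusted p of 0.05 without passing it. The collagen genes *Col1a1*, *Col1a2* and *Col3a1* had means between -0.07 and 0.10. The study reported that *Tbx18* and *Sox9* expression was lost in older ureters whose mesenchyme lacked *Ctnnb1*, the gene of the WNT effector β-catenin. Whether such markers track the amount of mesenchyme here was not tested. The part of the mesenchyme in the falls of *Adamts15* and *Adamts9* was not tested. The 10 ureteric epithelial markers had a median of 0.08, and 0 passed the FDR in limma while 1 was lower and 3 were higher at an unadjusted p of 0.05. Of these 3, *Ret* (0.42 and 0.29 on the arrays) is also counted among the nerve markers that were higher. Of 8 markers of kidney mesenchyme, 3 were higher on both arrays, with *Meox1* past the FDR (mean 0.96; limma, FDR = 0.0286). The 2 that were lower on both were *Osr1* (-0.60 and -0.53; FDR = 0.0503) and *Wt1*. The *Wt1* ratios differed between the arrays, with -0.14 and -1.29 (FDR = 0.266). The other 3 had opposite signs, *Six2* with 1.03 and -0.38, *Sall1* with 0.29 and -1.81 and *Eya1* with 0.16 and -0.21. The summed red cell markers were 138880 in the control pool of replicate 1 and 71122 in that of replicate 2. The part of these differences between pools in the members whose arrays disagreed was not tested.

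Promoter sequences were available for 22 of the 37 tested members (24 promoters, RefSeq, GRCm38). Of the members past the FDR, that of *Adamts9* was available and those of *Adamts15* and *Mmp9* were not. The 250 bases before each start were searched on both strands for 5 short motifs. The AP-1 motif TGANTCA, a known site of many MMP promoters, was found in 2 of the 24, those of *Mmp13* and *Mmp12*, and in 6.75% of all 32851 promoters. The ETS-like motif CAGGAAG was found in 3 of the 24 (*Adamts12*, *Timp1* and *Timp3*) and in 10.8% of all. The TCF/LEF motifs CTTTGAT and CTTTGAA and the GLI motif TGGGTGGTC were in 0 of the 24 and in 3.21%, 4.46% and 0.225% of all. A match is a description of letters and shows no binding. The promoters of *Mmp13* (chr9:7272264-7272513, plus strand), *Adamts1* (chr16:85803114-85803363, minus strand) and *Adamts9* (chr6:92943535-92943784, minus strand) are printed as those of members described above with a higher, a higher and a lower signal, and capitals mark the AP-1 motif, which is 35 bases before the start of *Mmp13*.
*Mmp13*: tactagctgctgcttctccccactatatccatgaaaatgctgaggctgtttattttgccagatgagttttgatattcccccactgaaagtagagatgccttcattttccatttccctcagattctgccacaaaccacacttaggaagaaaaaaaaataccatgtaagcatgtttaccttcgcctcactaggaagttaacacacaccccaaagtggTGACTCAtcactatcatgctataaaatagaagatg
*Adamts1*: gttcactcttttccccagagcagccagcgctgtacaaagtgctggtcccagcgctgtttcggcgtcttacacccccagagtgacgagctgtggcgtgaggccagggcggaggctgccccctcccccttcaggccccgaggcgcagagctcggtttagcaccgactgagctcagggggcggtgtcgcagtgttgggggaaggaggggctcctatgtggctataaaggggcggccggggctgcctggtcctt
*Adamts9*: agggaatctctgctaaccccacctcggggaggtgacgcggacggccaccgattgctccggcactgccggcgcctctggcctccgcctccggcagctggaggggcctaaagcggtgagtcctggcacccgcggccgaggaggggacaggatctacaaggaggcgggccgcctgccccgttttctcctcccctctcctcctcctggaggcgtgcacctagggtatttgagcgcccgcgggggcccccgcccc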

How the data were processed

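Per the file headers, the deposited scanner files hold the intensity of each spot and its local background in both channels, written by Feature Extraction 12.2.0.7 for array design 084956, and a processed intensity, which is background-subtracted and dye-normalized by that software. The labels name version 10.7.3.1. The authors also deposited values in another unit, signed fold changes of treated over control, used as an alternative here. Depth has no counterpart on arrays, and the number of arrays limits the precision. Mean intensities were corrected by normexp (offset 50), log2 ratios were normalized by loess within arrays, outlier spots were dropped, the 4 spots of a probe averaged and the brightest kept probe of a gene used. Ratios were turned to IWP-2 over control and tested with lmFit and eBayes (limma 3.58.1, data.table version 1.17.8, R 4.3.3) with Benjamini-Hochberg adjustment over 20119 genes. The procedure was tested on simulated data whose planted changes were larger than those of the members called here, which does not show how it performs at their size. The labels do not say whether the pools of the 2 arrays came from separate litters or cultures. The p-values thus rest on the spread between these arrays, which may be technical. The eBayes step moves the variance of each gene towards that of all genes tested, with 5.52 prior degrees of freedom beside 1 residual one. Both arrays share a scan. All members were named, those past FDR 0.05 or an unadjusted p of 0.05, the 5 largest in each direction, the *Timp* genes and those with disagreeing probes with their values. The members, lists and rules were chosen with earlier results of these data known. Intensities printed are geometric means of processed intensity over the spots of a probe. Probe positions are those of the files (mm9), and RefSeq (GRCm38) gave promoters and the order of genes.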

Additional observations from a re-analysis of the deposited data

How the results depend on the processing

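*Adamts15*, *Adamts9* and *Mmp9* kept their direction under each alternative run, among them leaving out either array. *Mmp13* was higher wherever it was tested, but it had been admitted through its IWP-2 channels alone, which favours a higher ratio. Its direction is therefore no sign of a stable result. It could not be tested where all 4 channels had to be above background. The counts of members past FDR 0.05 (2 lower and 1 higher as reported) changed with the processing. They were 0 lower and 0 higher with the processed signals at a floor of 15, with median centring, in the separate-channel model with or without a dye term, and at FDR 0.01. Of all genes tested, median centring called 36 lower and 7 higher, and the model without a dye term 111 and 16 (232 and 123 as reported). The members were 1 lower and 2 higher (with *Mmp13*) with plain background subtraction (all genes: 175 and 73). They were the same with processed signals without a floor (all genes: 171 and 75), an alternative chosen after seeing the data. There was 1 lower member without background correction (all genes: 176 lower and 74 higher). Without a filter on dim probes there were 1 lower and 0 higher (98 and 21 of 29899 genes). The trend prior gave 3 higher, with *Adamts1* and *Mmp13* (all genes: 293 lower and 224 higher). The deposited fold changes, in which 5039 genes had equal ratios on both arrays, gave 2 lower and 4 higher, of which 0 were among the 3 reported genes (FDR between 0.0742 for *Adamts15* and 0.311 for *Mmp9*), and called 1322 lower and 1038 higher of all genes. The processed signals with the floor, in which 908 genes had equal ratios on both arrays, and the separate-channel model with a dye term called 0 of all 20119 genes. At an unadjusted p of 0.05 (9 lower and 5 higher as reported), median centring gave 3 lower and 3 higher and the deposited fold changes 5 lower. Of the partners, ADAMs and substrates, 3 were lower and 0 higher as reported. They were 0 lower with processed signals, median centring, the dye term and FDR 0.01, and there was 1 higher with either trend prior and 5 higher with the deposited fold changes. At 1.5-fold the intensity filter passed 1 member in place of 0.

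The median log2 ratio of the ADAMTS genes (-0.086) became -0.18 with plain subtraction, -0.19 with processed signals without a floor and with the deposited fold changes, and 0.00077 without the filter. That of the MMPs (0.031) became 0 with processed signals and with the deposited fold changes, -0.0049 without the filter, 0.013 with all 4 channels above background and 0.042 without a floor. That of the ADAMTSL genes (-0.013) became -0.027 with plain subtraction, -0.032 with processed signals with or without the floor, -0.0073 with median centring, -0.082 without the filter, 0.0059 with the mean over probes and -0.066 with the deposited fold changes. Leaving out an array gave medians between -0.084 and -0.0023 for ADAMTS, 0.035 and 0.039 for MMPs and -0.018 and -0.013 for ADAMTSL, and that of the TIMPs (-0.059) turned sign, from -0.16 without replicate 2 to 0.039 without replicate 1, and was 0 with the deposited fold changes. The sign turned, or the value became 0, for *Adamts8* (-0.091 with processed signals, -0.022 with the mean over probes, -0.079 to 0.11 leaving out an array), *Adamts12* (0 with processed signals, -0.0023 to 0.049), *Timp2* (0 with the deposited fold changes, -0.16 to 0.034) and *Timp1* (-0.16 to 0.039). The causes were not tested.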
